A study of Mus musculus with 3 samples.

Results

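Chromatin accessibility in mouse ECOMG myeloid progenitor cells was compared between 72 h with dTAG and 0 h without dTAG, region by region. ATAC-seq cuts and tags open DNA with a transposase, and a region is a stretch that the authors' peak caller listed as open. All regions on chromosomes 1 to 19 and X of both lists were taken, 182187 from the 0 h library and 145021 from the 72 h library, or 327208 of the 505332 regions of the series. A 0 h and a 72 h region count as matched from 1 shared bp on.

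All 3 libraries of the series came from cells of the genotype FKBP12F36V_NIPBL, in which NIPBL carries a degron, grown with GM-CSF and β-estradiol. The compared groups were 0 h without dTAG and 72 h with dTAG, and a library at 6 h with dTAG is quoted beside them. Each library was made from 50000 cells, and no source used here gives the dose of dTAG. With 1 library to a group, no difference has a replicate check, no test across conditions was run, and dTAG, time in culture and library cannot be told apart.

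NIPBL helps cohesin load on DNA and extrude loops, which bring distant elements such as enhancers and promoters together and stop where CTCF is bound. A dTAG molecule joins the tagged protein to an E3 ubiquitin ligase, and the protein is broken down. Myeloid progenitors give rise to granulocytes and monocytes, and PU.1, C/EBP and AP-1 factors are among the proteins that open chromatin at the genes of these cells. Promoters rich in CpG dinucleotides are open in most cell types, whereas promoters poor in CpG tend to be open in few.

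Of 7 marker sets checked, the myeloid progenitor set had all 13 loci occupied at 0 h and 12 at 72 h, Kit being the locus at 0. A locus is the span of a gene with 10 kb on each side. Summed regions went from 200 at 0 h to 184 at 72 h in the 13 progenitor loci, from 66 to 110 in 10 mature neutrophil loci and from 54 to 75 in 7 monocyte and macrophage loci. They went from 40 to 16 in 5 lymphoid loci, from 30 to 22 in 4 erythroid loci, from 11 to 5 in 3 mast cell and basophil loci and from 25 to 9 in 5 loci of non-blood tissues. Over all protein-coding loci the ratio of 72 h to 0 h regions was 0.854. Single progenitor loci moved both ways, such as Elane from 24 to 13 and Csf2rb from 17 to 24. The loci of Elane and Prtn3 overlap, so shared regions enter the progenitor sum more than once. The rise in the monocyte and macrophage sum rested on 1 locus, Adgre1, which went from 13 to 42, while Marco went from 4 to 0. More cells with an open site and a site more open in each cell cannot be told apart in such bulk libraries. The peak caller's background, read from the even steps of its fold values, was 0.323 fragments at 0 h and 0.281 at 72 h, a ratio of 0.870. Median region length was 130 bp at 0 h and 153 bp at 72 h, and the covered length was 34.1 and 29.9 Mb. The part of depth in the counts below was not tested.

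Promoters of 7 genes are shown first because they stand for the classes described below. Each line gives the 250 bases before the transcription start on the gene's own strand, from RefSeq (GRCm38.p6, the assembly of mm10), in lower case, with the matches to the searched motifs in capitals. Fpr1 (chr17:17883940-17884189, minus strand), Padi4 (chr4:140774204-140774453, minus strand) and Pirb (chr7:3720383-3720632, minus strand) had a region near the promoter at 72 h and none at 0 h. Cd244a (chr1:171558943-171559192, plus strand) and Lif (chr11:4257318-4257567, plus strand) were open at both times and ranked far higher at 72 h. Mcpt8 (chr14:56085198-56085447, minus strand) had a region at 0 h only, and Mycl (chr4:122995681-122995930, plus strand) ranked far lower at 72 h.
Fpr1: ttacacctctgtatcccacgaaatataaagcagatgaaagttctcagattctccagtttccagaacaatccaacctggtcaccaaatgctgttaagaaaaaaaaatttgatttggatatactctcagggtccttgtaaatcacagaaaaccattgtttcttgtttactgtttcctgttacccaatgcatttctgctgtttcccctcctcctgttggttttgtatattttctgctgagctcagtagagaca
Padi4: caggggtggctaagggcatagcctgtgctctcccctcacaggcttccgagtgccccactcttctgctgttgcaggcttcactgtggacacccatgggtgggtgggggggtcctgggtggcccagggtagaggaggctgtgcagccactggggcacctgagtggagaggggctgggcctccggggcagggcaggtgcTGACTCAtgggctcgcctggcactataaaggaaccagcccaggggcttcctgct
Pirb: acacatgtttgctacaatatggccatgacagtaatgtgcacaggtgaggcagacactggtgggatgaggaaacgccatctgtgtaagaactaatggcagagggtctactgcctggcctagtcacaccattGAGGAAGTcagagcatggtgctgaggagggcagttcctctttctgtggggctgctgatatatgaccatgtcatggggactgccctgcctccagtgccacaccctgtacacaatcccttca
Cd244a: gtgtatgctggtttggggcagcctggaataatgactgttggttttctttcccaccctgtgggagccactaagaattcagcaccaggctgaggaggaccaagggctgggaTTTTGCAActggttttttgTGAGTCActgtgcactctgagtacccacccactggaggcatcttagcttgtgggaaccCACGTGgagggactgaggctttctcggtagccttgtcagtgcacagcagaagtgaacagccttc
Lif: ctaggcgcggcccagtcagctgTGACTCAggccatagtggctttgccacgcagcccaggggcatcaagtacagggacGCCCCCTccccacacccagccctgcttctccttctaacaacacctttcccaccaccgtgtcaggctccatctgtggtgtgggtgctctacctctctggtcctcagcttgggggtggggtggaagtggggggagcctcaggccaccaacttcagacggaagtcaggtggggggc
Mcpt8: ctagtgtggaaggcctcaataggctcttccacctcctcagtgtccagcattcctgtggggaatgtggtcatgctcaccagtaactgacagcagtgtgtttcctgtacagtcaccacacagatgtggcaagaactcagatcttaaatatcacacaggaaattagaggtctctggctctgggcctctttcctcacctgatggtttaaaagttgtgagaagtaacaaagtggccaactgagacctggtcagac
Mycl: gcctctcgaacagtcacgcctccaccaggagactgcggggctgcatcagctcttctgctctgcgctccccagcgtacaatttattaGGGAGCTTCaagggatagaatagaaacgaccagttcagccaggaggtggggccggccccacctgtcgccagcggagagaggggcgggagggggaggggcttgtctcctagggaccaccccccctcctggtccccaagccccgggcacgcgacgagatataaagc
The capitals mark an AP-1 match in Padi4, a PU.1-type ETS match in Pirb, a C/EBP, an AP-1 and an E-box match in Cd244a, an AP-1 and a CTCF-core match in Lif, and an NF-kB match in Mycl. No searched motif matched in the 250 bases shown for Fpr1 and Mcpt8. The 300 bases around the start held 1 CpG in Fpr1, 1 in Pirb, 0 in Mcpt8, 2 in Cd244a, 7 in Lif, 8 in Padi4 and 22 in Mycl.

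The highest regions were held in common, and the lists parted among low ones. In the lowest 10% of the 0 h list by −log10 q, 18% of regions overlapped a 72 h region, and in the highest 10% the share was 99.8%. In the 72 h list the same shares were 46.1% and 99.8%. Over all regions, 59.8% of the 0 h list and 77.2% of the 72 h list were overlapped (exact Clopper-Pearson 95% intervals 59.6 to 60.0 and 76.9 to 77.4, which here and below cover counting error only). Short regions were the ones that went unmatched, since 28.1% of 0 h regions under 100 bp and 99.7% of those of 1000 bp or more were overlapped at 72 h.

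**Figure D1:**
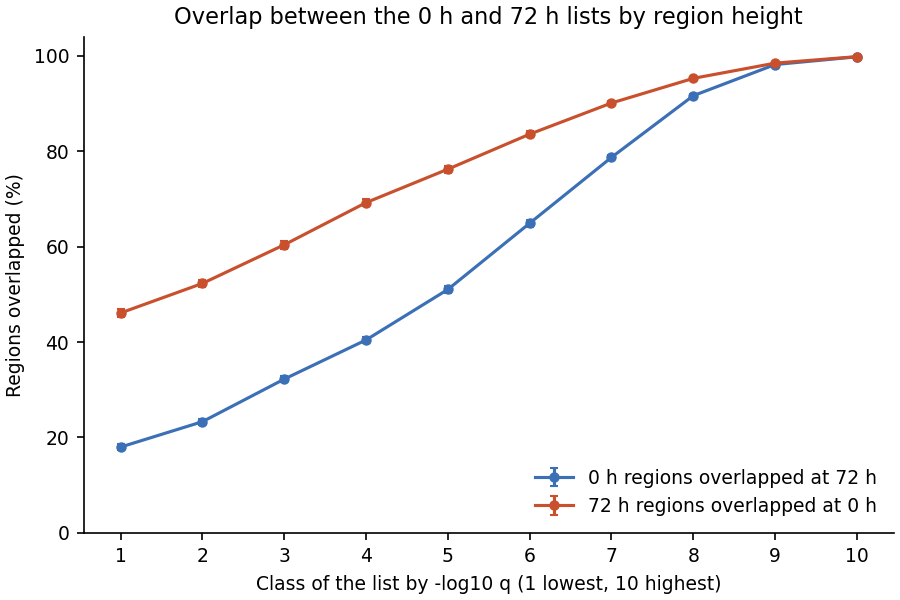
Share of regions overlapped by the other list (y axis, %) in each of 10 equal classes of a list by −log10 q (x axis, 1 lowest); blue, 0 h regions overlapped at 72 h; red, 72 h regions overlapped at 0 h; bars, exact 95% intervals. Both curves end at 99.8% in the highest class, and they start at 18% and 46.1%.

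A region is called strong here when its −log10 q put it among the upper 50% of the list it came from, lost when a strong 0 h region had no overlap at 72 h, and gained when a strong 72 h region had none at 0 h. By this rule 15486 of 98469 strong 0 h regions (15.7%) were lost and 5487 of 76036 strong 72 h regions (7.22%) were gained. That excess of losses depended on the cutoff: with lists cut to equal size 6689 were lost and 7289 gained, and counting regions of fold 10 or above as strong gave 4144 and 4586. Lost regions were shorter and lower than gained ones, with a median length of 129 bp against 180 bp and a median fold, the summit over the caller's background, of 8.32 against 12.5. Folds are given as listed and were not scaled between libraries: a list's median fold rose from 6.80 (0 h) through 7.54 (6 h) to 9.37 (72 h), so a fold that is higher at a later time can reflect the list as a whole. Of the lost regions, 373 had a fold of 20 or more, and of the gained ones 843 did. At 6 h, 88.6% of the lost regions were still listed, and 44.9% of the gained ones already were.

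Gained regions lay close to chromatin that was already open, and lost ones more often alone. A 0 h region was found within 500 bp of 29.8% of gained regions (95% interval 28.6 to 31.0), and a 72 h region within 500 bp of 16.8% of lost ones (16.2 to 17.4). Within 5000 bp the shares were 82.3% and 50.6%. The 0 h list was the longer, so a chance neighbour was more likely on the gained side, and the part of list length in this difference was not tested.

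Loss was more frequent farther from genes. Of strong 0 h regions at gene ends, meaning within 1 kb of where a protein-coding span starts or stops, 7.58% were lost (95% interval 7.20 to 7.98), against 15.2% inside genes, 18.6% at 10 to 50 kb outside them, 27.2% at 50 to 200 kb and 35.5% beyond 200 kb (33.8 to 37.3). Gain followed another course, with 2.32% at gene ends and between 7.28% and 9.45% in every other class. The order was kept among regions of like height: at folds of 10 to under 20, loss went from 8.40% at gene ends to 10.9% inside genes, 21.7% at 50 to 200 kb and 29.4% beyond 200 kb, while gain was 6.29% at gene ends and between 12.2% and 14.4% elsewhere. Between lists of equal size, loss was 3.46% at gene ends and 23.7% beyond 200 kb, and gain 3.21% and 11.7%.

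**Figure D2:**
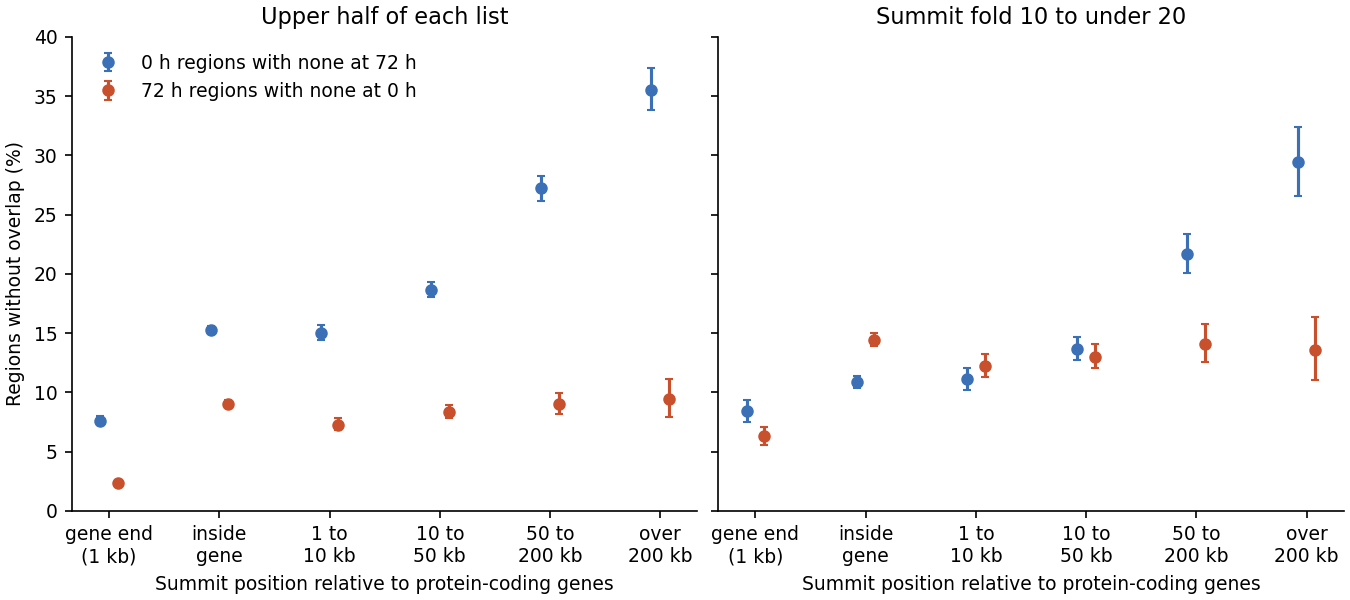
Share of regions without overlap in the other list (y axis, %) by position of the summit relative to protein-coding genes (x axis); left, strong regions; right, regions with a fold of 10 to under 20; blue, 0 h regions; red, 72 h regions; bars, exact 95% intervals. Blue points climb from 7.58% to 35.5% on the left and from 8.40% to 29.4% on the right, and red points beyond the gene ends stay between 7.28% and 14.4%.

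The same held for the number of genes around a region. In stretches of 1 Mb with 0 protein-coding genes, 3673 regions at 0 h stood against 1798 at 72 h, a ratio of 0.490, and 33.8% of the strong ones were lost. Stretches with 20 genes or more held 46551 and 38929, a ratio of 0.836, and lost 11.7%. The share gained was 10.3% in the first class and 5.55% in the second. Counts fell short of the 0 h number in 2347 of 2567 stretches and exceeded it in 178. Over all stretches the ratio was 0.796, and the part of list length in these counts was not tested.

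Single stretches departed far from these ratios. On chromosome 3, the stretch from 15 to 16 Mb that holds Sirpb1a, Sirpb1b and Sirpb1c, signal regulatory proteins of myeloid cells, went from 23 to 43 regions with 0 of 18 strong ones lost. On chromosome 10, the stretch with Btg1, an antiproliferative gene, and Eea1, an endosome protein, went from 86 to 124. At the other end, the stretch on chromosome 6 with Sox5 went from 47 to 7, and one on chromosome 5 with Tmem132d and Fzd10 from 37 to 6. The first stretch with regions on chromosome 3, at 3 to 4 Mb, went from 71 to 12.

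Some losses came in rows along the chromosome, and how many depended on the cutoff. Runs of at least 5 strong 0 h regions in a row that were all lost numbered 111, and 3 runs of at least 5 gained ones were found. With lists of equal size there were 19 lost and 9 gained runs, and with strong regions taken from fold 10 up there were 6 and 3. The longest lost run held 12 regions over 767 kb of chromosome 3 (chr3:152958486-153725309, mm10), across the sialyltransferase genes St6galnac5 and St6galnac3, where the lists gave 22 regions at 0 h and 1 at 72 h. Runs of 11 lay in Msi2, an RNA-binding protein of stem and progenitor cells, and across Grin3a and Cylc2 on chromosome 4. A run of 10 lay in Fry, where 19 regions went to 0. The longest gained run held 6 regions over 8.63 kb of chromosome 11 (chr11:83607130-83615762), in a stretch with 0 regions at 0 h and 8 at 72 h. Another of 5 lay on chromosome 19 over Dtx4, with folds up to 49.96, and one of 5 in Pde1a.

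Among lost and gained regions of 300 bp or more, the 8 highest gained ones were low or not listed at 6 h. A region in the span of Cd200r3, a receptor of the CD200 family, had a fold of 99.1 at 72 h and 6.03 at 6 h. The gene end nearest to another such region was that of Cd14, the co-receptor for bacterial lipopolysaccharide, 11414 bp away. This region had 80.4 at 72 h and 7.54 at 6 h. A region in Atg7, an autophagy enzyme, had 68.7 at 72 h and was not listed at 6 h. The 8 highest lost ones had folds between 28.6 and 130 at 6 h: a region in Nrxn3, a neuronal adhesion gene, had 105 at 0 h and 130 at 6 h, one in Atrnl1 60.5 and 56.5, and one in Cdh17, a cadherin of the gut, 54.4 and 71.6. Without the length limit, very short regions led the lost and gained regions. A lost one of 87 bp near Itprip had a fold of 955 at 0 h and was not listed at 6 h or 72 h. A gained one of 83 bp in Smurf1 had 374 at 72 h but already 461 at 6 h, and a 0 h region lay 107 bp away.

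Regions open at both times changed their order as well. After regions within 150 bp of each other were joined, 90252 pairs matched one to one, and each member was ranked by fold as a percentile within its own library. At 72 h, 12.8% of pairs ranked 25 or more percentile points higher than at 0 h and 12.1% as much lower. At 6 h, in a comparison that shares the 0 h library, 4.02% of 119590 pairs were that much higher and 3.97% that much lower. Pairs beyond 200 kb from genes were 10.8% higher and 23.1% lower at 72 h, pairs inside genes 14.9% and 11.3%, and pairs at gene ends 6.61% and 7.11%.

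The extreme pairs, picked after their values were seen, went through 6 h in different ways. A pair whose nearest gene end was that of Tomm20, 48698 bp away (chr8:126881632-126882579 at 72 h), had a fold of 3.78 at 0 h, 10.5 at 6 h and 144 at 72 h. A pair inside Arf2 had 3.02, 9.04 and 92.1, and one in Cd82, a tetraspanin of leukocytes, had 3.78, 5.27 and 68.7. In all 3 the listed fold was higher at 6 h than at 0 h. Downward, a pair inside Ildr2 had 59.7 at 0 h, 52.7 at 6 h and 3.12 at 72 h, and one near Ccr4, a chemokine receptor of T cells, had 58.2, 52.0 and 4.68. Others were low by 6 h: a pair near 4930519L02Rik had 55.2, 10.5 and 3.12, and one near Plekha2, an adaptor protein, had 42.3, 9.80 and 3.90.

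Promoters were read in windows of 300 bp, from 250 bases before to 50 after the start, for 17274 genes. No gene on chromosome 18 had such a window. A window held a region at 0 h only in 617 genes (3.57%) and at 72 h only in 112 (0.648%). Among the 9174 genes with a region at both times, 1.53% ranked 25 or more points higher at 72 h and 3.49% as much lower. The genes with the highest folds under these counts, among them Asb15, Prune1, Lrp8 and Cdc6, mostly had a region just outside the window at the other time: this held for 8 of the 10 genes leading the 72 h only class and for 9 of the 10 leading the 0 h only class. Lrp8, for example, had its 0 h region in the window with a fold of 194, and a region within 1 kb of the window with 247 at 72 h.

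Windows were therefore widened by 1 kb on each side, a choice made after seeing the data. With this, 148 genes (0.857%) had a region at 72 h only and 882 (5.11%) at 0 h only, and among 10027 genes with a region at both times 1.38% ranked 25 or more points higher and 2.49% as much lower. Since the 10 highest of each class are selected on these folds, their values are a description. The folds given for promoters from here on are the highest in the widened window.

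Genes of phagocytes and their surface receptors were among those with a promoter region at 72 h only. Fpr1, the receptor for formylated bacterial peptides, had a highest fold of 49.96 at 72 h (13.3 within the 300 bp window), with no region listed at 0 h or 6 h. Wfdc17, a small secreted protein of myeloid cells, had 46.8, and Clec9a, a lectin receptor of dendritic cells, had 32.0, both again with none listed at 0 h or 6 h. Il1a, which encodes interleukin-1 alpha, had 23.4 at 72 h only (3.90 within the 300 bp window). Padi4, the enzyme that citrullinates histones in neutrophils, had no region at 0 h, 3.77 at 6 h and 17.2 at 72 h. Pirb, an inhibitory receptor of myeloid and B cells, had none, 5.27 and 13.3. Padi4 and Pirb thus had a low region at 6 h, and the other 4 genes had none. The class also held Tmprss3, a membrane serine protease with 76.5 at 72 h, and Col9a2, a cartilage collagen with 28.1. The regions of Clec9a, Tmprss3 and Col9a2 lay outside the 300 bp window, in the added 1 kb.

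The promoters with a region at 0 h only were of mixed kinds. Angptl6 had a highest fold of 125 at 0 h and 142 at 6 h, Hspg2, which encodes the matrix proteoglycan perlecan, had 71.8 and 77.6, and Igll1, part of the surrogate light chain of precursor B cells, had 61.2 and 55.8. Mcpt8, a protease of basophils, had 25.7 at 0 h and 15.1 at 6 h. Stra8, a gene of germ cells entering meiosis, had 57.5 and 41.4, and Cdh15, a cadherin of muscle, had 25.7 and 32.4. In each of these 6 genes a region was still listed at 6 h. Olfr1338, an olfactory receptor, had 34.8 at 0 h and none at 6 h. None of the 7 genes had one at 72 h, and those of Angptl6, Igll1, Stra8 and Olfr1338 lay outside the 300 bp window.

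The largest upward moves among promoters open at both times included receptors and cytokines of inflammation beside genes of other kinds such as Espn, an actin-bundling protein, and Rab19. Espn had 18.1, 19.6 and 151 in the widened window but 18.1, 12.1 and 4.68 in the 300 bp window, so the rise lay in the added 1 kb and the window itself went down. Il1r2, the decoy receptor for interleukin-1, had a fold of 31.7 at 0 h, 36.9 at 6 h and 215 at 72 h, and its rank was 74.8 points higher at 72 h. Within the 300 bp window it had 56.2 at 72 h and a rank 15.2 points higher, short of the 25 points of the rule. C5ar1, the receptor for complement C5a, had 9.83, 25.6 and 140. Lif, a cytokine of the interleukin-6 family, had 6.05, 18.8 and 123. In both genes the 6 h value lay between the others. Cd244a, a receptor of natural killer and myeloid cells, had 46.1, 71.6 and 223, and Gpr35, a G protein-coupled receptor of leukocytes, had 38.6, 55.8 and 189. Further down the order came Havcr2, the inhibitory receptor Tim-3, with 32.5, 43.0 and 119, Ccl3, a chemokine, with 18.9, 20.3 and 99.1, and Bcl2a1d, an antiapoptotic gene, with 15.1, 13.6 and 92.9.

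Downward moves were led by Osbpl3, an oxysterol-binding protein, with folds of 141, 171 and 21.9 at 0, 6 and 72 h. Dpf1, a subunit of a neuronal chromatin remodeller, had 137, 170 and 27.3. Mycl, a member of the MYC family, had 126 (65.0 within the 300 bp window), 172 and 27.3. Both had a higher listed fold at 6 h than at 0 h. Mfge8, which bridges dying cells to phagocytes, had 122, 134 and 24.2. Dusp2, a phosphatase of MAP kinases, had 137, 99.5 and 36.7, and Ptpn6, the phosphatase SHP-1 of blood cells, had 166, 80.6 and 50.7. Within the 300 bp window Ptpn6 had 53.7, 80.6 and 50.7, so its fall lay in the added 1 kb, whereas Dusp2 had the same values in both windows.

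**Figure D3:**
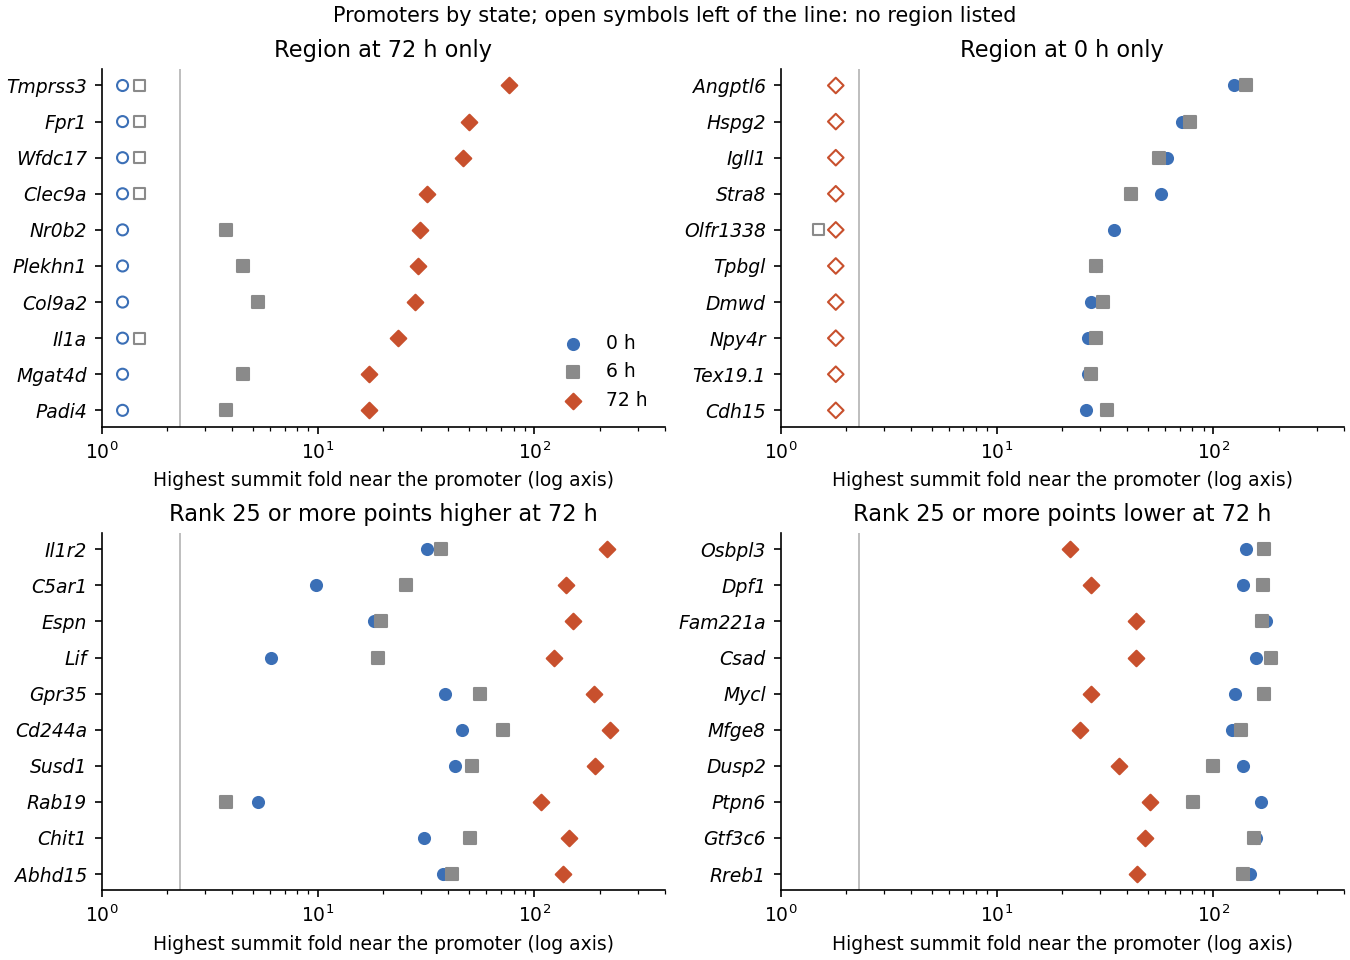
Highest summit fold within 1 kb of the promoter window (x axis, log scale) for the first 10 genes of each class; circles, 0 h; squares, 6 h; diamonds, 72 h; open symbols left of the line, no region listed. Il1r2 moves from 31.7 at 0 h to 215 at 72 h, and Osbpl3 from 141 to 21.9.

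The classes differed in CpG content, which the rule did not use. The median window held 21 CpG where a region was listed at both times, 20 where the rank was 25 or more points lower at 72 h, 8 where the region was listed at 0 h only, 7 where the rank was as much higher and 3 where the region was listed at 72 h only. Over all 17274 windows the median was 14. Of 0 h promoters with 0 to 4 CpG, 29.0% had no region at 72 h (95% interval 26.2 to 32.0), and of those with 20 or more, 3.28% had none (2.83 to 3.77). Of 72 h promoters, 11.4% with 0 to 4 CpG had no region at 0 h (9.25 to 13.8), and 0.162% of those with 20 or more had none (0.0741 to 0.307). Regions listed at one time only were thus most frequent, in either direction, in windows poor in CpG. Promoters poor in CpG also had a region less often at either time (20.6% of windows with 0 to 4 CpG at 0 h, against 88.7% of those with 20 or more), and the part of region height in these shares was not tested.

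**Figure D4:**
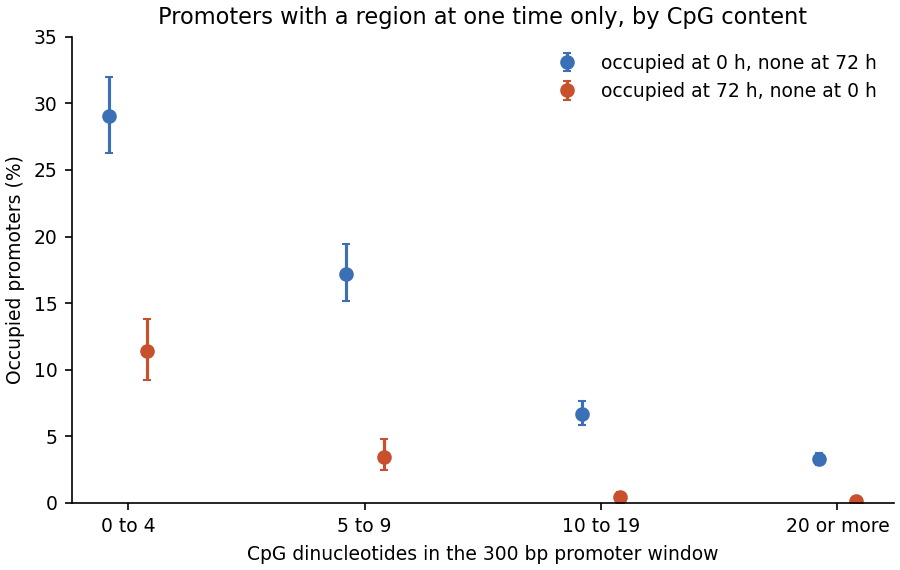
Share of promoters with a region at one of the times only (y axis, %) by the number of CpG in the 300 bp window (x axis); blue, of promoters with a region at 0 h; red, of promoters with a region at 72 h; bars, exact 95% intervals. Blue points go from 29.0% to 3.28% and red points from 11.4% to 0.162%.

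Motifs were matched on both strands of the same 300 bp windows, 1 for each gene, and a window could hold several. The PU.1-type ETS motif GAGGAAGT was in 3.28% of all windows, in 8.78% of those listed at 72 h only (13 of 148, 95% interval 4.76 to 14.6), in 7.97% of those with a higher rank (11 of 138, 4.05 to 13.8), in 1.81% of those listed at 0 h only and in 0.4% of those with a lower rank (1 of 250). Windows with no region at either time, whose median CpG count was also 3, held it in 3.25%. The AP-1 motif TGANTCA was in 7.03% of all windows, in 11.5% at 72 h only, in 14.5% with a higher rank, in 2% with a lower rank and in 10.4% with no region. The IRF motif GAAANNGAA was in 8.13% of all windows and 14.9% at 72 h only (9.56 to 21.6), against 9.52% with no region. The C/EBP motif TTGCNNAA was in 10.1% of all windows, 12.8% at 72 h only, 15.2% with a higher rank (21 of 138, 9.67 to 22.3), 8.4% with a lower rank and 13.2% with no region. The G-rich CTCF core AGGGGGC was in 13.0% of all windows and 13.4% at 0 h only. At 72 h only it was in 7.43%, close to the 7.19% with no region. With a lower rank it was in 19.6% (14.9 to 25.1), an interval that holds the 16.6% of windows with a region at both times. The E-box CACGTG was in 7.95% of all windows and in 10.2% of those with a region at both times. With a higher and a lower rank its shares were 10.1% and 10.0%, near that of the both-times class. Both rank classes are drawn from windows with a region at both times. In that class the shares were 3.34% for the ETS motif, 4.83% for AP-1 and 8.24% for C/EBP. The RUNX motif TGTGGTT stood in 4.82% of all windows and in 5.41% of those listed at 72 h only. For the GATA factors, the searched letters were AGATAAG, found in 2.56% of all windows and in 7.43% at 72 h only (3.77 to 12.9). The joint HOX and PBX motif TGATTNAT was found in 2.93% and 6.76%, close to its 5.79% in windows with no region. The NF-kB motif GGGANNTTC was found in 3.84% and 3.38%. The capitals in the promoters printed above are such matches, and a match is a description of letters, not a bound site.

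Over gene loci, 20.9% of 21631 protein-coding genes had a higher region count at 72 h and 52.9% a lower one. Loci with at least 4 regions and 2 times more at 72 h were 0.666% of all, and loci with as many fewer were 7.54%. Between lists of equal size these were 524 and 572 loci, so the excess of falls depended on list length. A region in overlapping loci counts once for each gene. The ratio of 72 h to 0 h regions over all loci was 0.854.

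The loci with the largest gain in regions, taken by rule, included signalling and surface genes of phagocytes. Myh9, the heavy chain of non-muscle myosin IIA, went from 57 at 0 h to 59 at 6 h and 100 at 72 h. Adgre1, the macrophage antigen F4/80, went from 13 and 13 to 42. Lyn, a Src-family kinase of myeloid cells, went from 24 and 27 to 48, and Syk, the kinase downstream of Fc receptors and lectin receptors, from 22 and 23 to 40. In these 4 loci the 6 h count stayed within 3 regions of the 0 h count. Itpr1, a calcium channel of the endoplasmic reticulum, went from 62 and 73 to 96, and Creb5, a transcription factor, from 63 and 71 to 86. Apol9b, an apolipoprotein gene beside Myh9, went from 7 and 6 to 26.

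The loci with the largest drop were mostly long genes known from other tissues. Ranking by the difference in region count favours loci with many regions at 0 h, and so long spans. Pdzd2 went from 83 at 0 h to 75 at 6 h and 41 at 72 h, Dnah8, a dynein of sperm tails, from 48 and 45 to 10, and Slit3, an axon guidance ligand, from 59 and 52 to 23. Fry went from 40 and 41 to 6. Nrg1, a growth factor of nerve and heart, went from 53 and 44 to 20, and Shank2, a scaffold of synapses, from 46 and 39 to 14. The 6 h counts were nearer to the 0 h counts in all 6. Mroh2a, also taken by rule, went from 40 and 23 to 9, so its 6 h count was nearer to the 72 h count.

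Receptors that sense microbes held more regions at 72 h, and their matched regions ranked higher. Over the 24 listed pattern recognition receptors the loci held 165 regions at 0 h and 235 at 72 h, with 17 loci higher and 5 lower. Of 96 matched pairs in these loci, 36.5% ranked 25 or more points higher and 2.08% as much lower, against 12.3% and 10.1% over the loci of all genes. Fpr1 went from 7 to 14 regions and Fpr2, beside it in the genome, from 4 to 12, in overlapping loci. Clec4n, which encodes the lectin Dectin-2, went from 5 to 13. Other listed loci overlap too, such as those of Trem1 and Trem3, so shared regions enter the sum more than once. Nod2, a sensor of bacterial cell walls, went from 19 to 30, and Nlrp3, the inflammasome sensor, from 13 to 17 with its promoter fold going from 49.1 to 129. Promoter folds went from 62.0 to 157 at Tlr6 (45.4 to 60.1 within the 300 bp window) and from 31.7 to 99.9 at Clec4e, which encodes the lectin Mincle. Tlr9 stood against this with 11 regions at 0 h and 5 at 72 h, and Marco, a scavenger receptor, with 4 and 0.

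Receptors for antibody, complement, chemokines and cytokines lay on the same side. The 19 Fc, complement and inhibitory receptor loci held 265 regions at 0 h and 297 at 72 h, and the median rank of their 14 promoters listed at both times was 12.4 points higher. Lilrb4a, an inhibitory receptor, went from 8 to 16 regions and Itgb2, the common β2 integrin chain, from 27 to 35. The promoter fold of Fcgr3, a low-affinity receptor for immunoglobulin G, went from 18.1 to 60.1. The 22 chemokine and cytokine receptor loci held 234 and 285 regions, with 17 loci higher and 3 lower. Among them Il1rn, which encodes the interleukin-1 receptor antagonist, went from 7 to 13 regions, and Csf2rb, the common chain of the GM-CSF receptor, from 17 to 24. Ccr1 went from a promoter fold of 71.1 to 186, and Cxcr4, which holds progenitors and neutrophils in the marrow, from 69.5 to 35.1.

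Regions of secreted factors ranked higher more often than lower. The 21 chemokine and cytokine loci held 173 regions at 0 h and 182 at 72 h, with 9 loci higher and 9 lower, and 28% of their pairs ranked 25 or more points higher and 4% as much lower, against 12.3% and 10.1% over all loci. Their ratio of regions was 1.23 times that of all loci. Ccl6 went from 8 to 14 regions and its promoter fold from 12.9 to 56.2, Ccl9 from 7 to 11 regions and from 6.80 to 37.5, and Cxcl2 from a promoter fold of 45.4 to 106. The loci of Ccl6 and Ccl9 overlap and share regions. Ccl3 had fewer regions, 12 at 0 h and 9 at 72 h, and a higher promoter.

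Both lists of granule genes stood above the ratio of all loci, by a factor of 1.35 for the late granules and 1.06 for the early ones. The 20 specific and gelatinase granule genes, made late in neutrophil maturation, held 151 regions at 0 h and 174 at 72 h, with 12 loci higher and 6 lower and a median promoter rank 9.21 points higher over 14 genes. Mmp8, neutrophil collagenase, went from 8 to 15 regions and Cybb, the oxidase subunit gp91phox, from 5 to 12. The 15 azurophil granule genes, made early, held 221 and 201, with 7 loci higher and 8 lower and a median promoter rank 3.05 points higher over 12 genes. Elane, neutrophil elastase, went from 24 to 13 regions and Prtn3, proteinase 3, from 27 to 16, in overlapping loci. Mpo went from 9 to 7, Ctsg from 6 to 4, Prss57 from 24 to 21 and Ms4a3 from 10 to 8. The higher loci of this early list included Ctsc, from 10 to 18, and Srgn, from 22 to 26. Its factor of 1.06 is thus a sum over loci that moved both ways. Ctsg, cathepsin G, had a promoter fold of 19.7 at 0 h and 3.90 at 72 h, whereas that of Srgn, the granule proteoglycan serglycin, went from 27.2 to 96.0. The difference between the granule lists was not tested.

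Progenitor factors held fewer regions at 72 h and granulocyte and monocyte transcription factors nearly as many as at 0 h, with ratios of 0.910 and 0.984 against 0.854 over all loci. The 23 progenitor and stem factor loci held 323 regions at 0 h and 294 at 72 h, with 7 higher and 14 lower. By the rule of 4 regions and 2 times, 6 of the 23 loci had fewer regions, against 7.54% of all loci, and Kit, the stem cell factor receptor, and Bcl11a, a transcriptional repressor, went from 7 to 0 each. The matched pairs did not follow, with 17.9% ranked 25 or more points higher and 11.9% as much lower. Hoxa7 went from 10 to 3 and Gata2 from 16 to 9, while Runx1 went from 51 to 58 and Etv6 from 41 to 58. Overlapping Hox loci share regions. The 22 granulocyte and monocyte transcription factor loci held 311 and 306. Their promoters moved both ways: Rara, the retinoic acid receptor, from 44.6 to 123 and Fosl2, an AP-1 subunit, from 72.6 to 192 (14.4 to 20.3 within the 300 bp window), but Runx3 from 160 to 58.5 and Gfi1, a repressor of granulocyte precursors, from 63.5 to 21.1.

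Signalling, cohesin and nuclear envelope loci stood above the overall ratio too. The 25 leukocyte kinase and adaptor loci went from 611 to 671, with 9 loci higher and 12 lower, so the sum rested on loci such as Lyn, Syk and Lcp2, an adaptor that went from 15 to 28. The 15 cohesin and loop extrusion loci went from 147 to 162, among them Nipbl itself from 27 to 30, Stag2 from 9 to 19, Ctcf from 11 to 16 and Mau2, the partner of NIPBL, from 10 to 7. The 15 nuclear envelope loci went from 293 to 302, with Syne1, which links nucleus and cytoskeleton, from 50 to 67, Lmnb1 from 24 to 29 and Lmna from 32 to 26. The median promoter rank moved by 0.110 points over 10 cohesin genes and by −1.61 over 13 nuclear envelope genes.

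Cell cycle loci stood above the overall ratio, and the side of the housekeeping loci depended on the flank. The 25 cell cycle and replication loci went from 322 to 309, with 9 higher and 14 lower. Their median promoter rank moved by −3.71 points over 20 genes. Mki67 went from 6 to 13 and Ccnb1, the mitotic cyclin, from 9 to 3. The 20 housekeeping loci went from 285 to 234, with 2 higher and 16 lower. The housekeeping ratio was 0.961 of that over all loci with 10 kb flanks and 1.02 of it with 50 kb flanks.

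Loci of tissues outside blood mostly held fewer regions at 72 h. In the 33 long genes of neurons 789 regions at 0 h became 358 at 72 h, with 33 of 33 loci lower, and 26.2% of the matched pairs ranked 25 or more points lower and 8.49% as much higher. Lsamp went from 42 to 14, Csmd1 from 52 to 27, Nrxn3 from 48 to 23 and Csmd3 from 32 to 11. The 20 markers of other tissues went from 125 to 74, with 14 loci lower, 1 higher and 5 the same, among them Cdh5, a cadherin of endothelium, from 11 to 3 and Col2a1, a cartilage collagen, from 9 to 1.

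**Figure D5:**
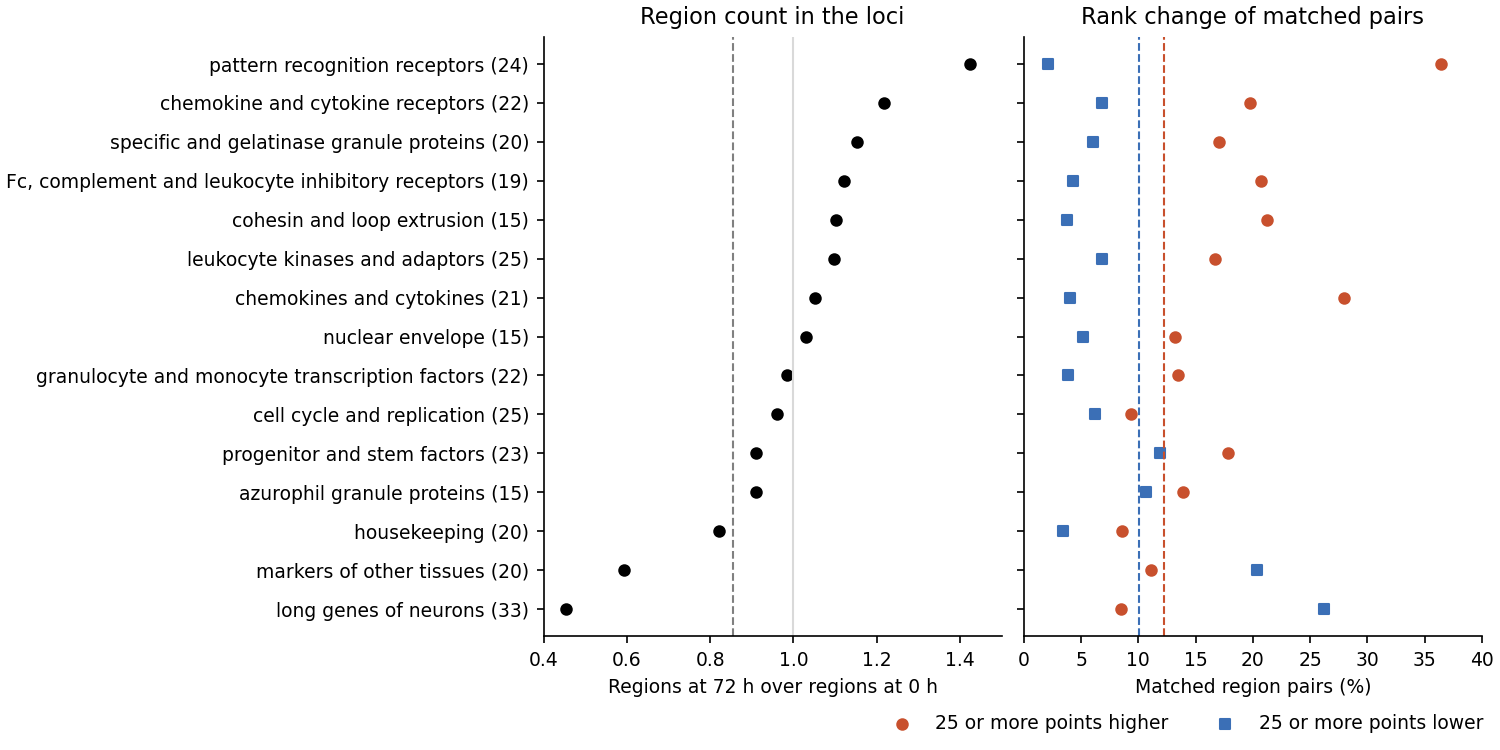
Left, ratio of summed regions at 72 h to those at 0 h (x axis) in the loci of each gene list, with the number of genes in brackets; dashed line, all protein-coding loci (0.854). Right, percent of matched pairs in those loci that ranked 25 or more points higher (red circles) or lower (blue squares), with dashed lines for all loci (12.3% and 10.1%); pattern recognition receptors lie at 36.5% and 2.08%, and long genes of neurons at 8.49% and 26.2%.

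Families taken by gene symbol overlapped the lists in part: most Toll-like receptors and several C-type lectins are also in the pattern recognition list. GABA receptor loci went from 46 regions at 0 h to 11 at 72 h, vomeronasal receptor loci from 140 to 56, keratin loci from 188 to 84, glutamate receptor loci from 235 to 124, collagen loci from 496 to 268, Hox loci from 237 to 125 and olfactory receptor loci from 605 to 353. CD antigen loci went from 815 to 856, C-type lectin loci from 217 to 232 and Toll-like receptor loci from 78 to 92. Chemokine loci went from 183 to 177, loci of interleukins and their receptors from 613 to 574 and integrin loci from 401 to 364, which were falls in number but ratios of 0.967, 0.936 and 0.908, above the 0.854 of all loci. Ribosomal protein loci had 751 and 635, a ratio of 0.846 near that of all loci. Histone loci went from 983 to 769, and 12 of the 62 histone promoters listed at both times ranked 25 or more points lower, against 2.49% of all promoters so listed, with a median of −8.21 points. Histone genes lie in clusters, so their loci share many regions.

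The neighbourhoods of microRNA genes had a ratio near that of all loci. The 1005 hairpins of the RefSeq table held 3835 regions at 0 h and 3269 at 72 h within 10 kb, a ratio of 0.852, with 177 higher and 450 lower. Sequences are given for a family with fewer and a cluster with more regions at 72 h, both chosen after their values were seen, with the seed (bases 2 to 8) in capitals.
mmu-miR-196a-5p: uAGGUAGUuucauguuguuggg
mmu-miR-196b-5p: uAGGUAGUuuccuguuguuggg
mmu-miR-23a-3p: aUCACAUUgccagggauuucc
mmu-miR-27a-3p: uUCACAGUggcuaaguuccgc
mmu-miR-24-3p: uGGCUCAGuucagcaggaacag
The miR-196 microRNAs share the seed AGGUAGU, lie within the Hox clusters and are known to target Hox messages. Mir196b (chr6:52230081-52230165, minus strand) had 7, 3 and 2 regions at 0, 6 and 72 h. Mir196a-1 (chr11:96265164-96265265, plus strand) had 8, 6 and 3, and Mir196a-2 (chr15:102973350-102973434, plus strand) had 11, 9 and 5. All 3 copies thus had fewer regions at 6 h and fewer again at 72 h. Their highest folds did not move together: Mir196b had 23.4, 19.6 and 22.6, Mir196a-1 had 21.9, 29.4 and 35.1, and Mir196a-2 had 454 at 0 h and 141 at 72 h. Mir23a, Mir27a and Mir24-2, which are made from 1 transcript of myeloid and other cells, lie together (chr8:84208518-84208921, plus strand) and had 16, 11 and 22. The seeds of miR-23a, miR-27a and miR-24, in capitals above, differ from one another.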

How the data were processed

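The authors deposited 1 peak list per library on the mm10 build. Per the submitters' processing notes the tools named include MACS2 2.2.7, BWA 0.7.17 and bedtools 2.30.0, and no source used here states options, read filters or read shifts. The deposited columns hold each region's fold (the ratio of its summit to the caller's background), its −log10 p-value and −log10 q-value, an integer score and the summit's offset from the region start. Folds and q-values are the authors' own values for each region and served to describe, rank or filter regions within a list; listed folds of the 3 libraries are set side by side without scaling. Steps of the deposited fold gave the background fragments per library, taking the fold as summit plus 1 over background plus 1.

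Overlap, ranks, shares and exact 95% intervals were computed with Python 3.11.15, numpy 2.4.6, pandas 2.3.3 and scipy 1.17.1. The interval code was checked on simulated regions. Gene spans, promoters and microRNAs came from RefSeq GRCm38.p6. A promoter window was available for 17274 of 21631 protein-coding genes, and the others were not used in promoter counts. None of the 511 protein-coding genes on chromosome 18 had a window, so that chromosome entered no promoter class. The 319 entries of 15 gene lists all matched a symbol. Named genes were the 10 with the highest fold or largest change in each class of promoters and loci, the 5 longest runs, the 5 highest lost and gained regions, and up to 4 members of a list with the largest difference in region count. Other list members, their promoter values, widened-window genes, regions of 300 bp or more, families, motifs and microRNAs were chosen after values were seen. The members, gene lists and comparisons were chosen with earlier results of these data known.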

Additional observations from a re-analysis of the deposited data

Results flagged for a closer look

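Chromosome Y lay outside the regions compared. It held 46 regions at 0 h without dTAG and 23 at 72 h with dTAG. It is listed here because these regions entered no comparison.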

How the results depend on the processing

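No paired analysis was possible because each group held 1 library.

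Requiring an overlap of 50% of the shorter region gave 58.8% of 0 h and 75.9% of 72 h regions overlapped, and lists of equal size (the highest 145021 of each) 69.8% and 72.3%. Joining regions within 150 bp gave 77.6% of 72 h regions. Lists of equal size gave 6689 lost strong regions and turned the log2 ratio of lost to gained from 1.5 to −0.12; a common fold minimum of 10 gave 4144 lost and −0.15. A −log10 q of at least 10 gave 8659 lost and 0.39, and the upper 25% of each list 980 lost, 530 gained and 0.89. For the 0 h only and 72 h only promoter counts, windows of 1 kb around either gene end, of more genes, gave 1358 and 259. Loci called higher were 30 with 50 kb flanks and 524 with equal lists, and loci called lower 572 with equal lists. With 50 kb flanks the housekeeping list moved from 0.961 to 1.02 of the change over all loci. Pairs ranked higher were 13.1% without joining and 11.9% with joining within 500 bp, and pairs ranked lower 12.5% and 10.9%; these 2 settings were added after seeing the data, as were the widened window, the 100 bp minimum and the distance classes and runs under other cutoffs. The cause of these shifts was not tested. The other 14 gene lists stayed on their side of the ratio of all loci with equal lists and with 50 kb flanks.

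Reads were not used here, so a region missing from a list can hold signal under the lowest listed summit of 3 fragments.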
